A study of Mus musculus with 24 samples.

Results

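Alveolar macrophages (AMs) are the macrophages of the air spaces of the lung, and their RNA was compared here with that of macrophages sorted from 3 other tissues: microglia (MG) of the brain, Kupffer cells (KCs) of the liver and peritoneal macrophages (PMs). The AM libraries were chosen by their labels, as the sorted (ex vivo) samples of the lung, and make up 3 of the 24 libraries of the series. They were set against the 9 other ex vivo libraries, with 3 from each tissue. The 12 cultured libraries of the series were not part of these comparisons. All cells came from female C57BL/6J mice that were not treated or genetically modified, with an age of 8 to 12 weeks in the labels. AMs were sorted as CD45+ SiglecF+ CD11b low cells and MG as CD45 low CD11b+ cells. KCs were sorted with CD45, CD11b, F4/80 and TIM-4 and PMs with CD45, CD11b, F4/80 and CD115, and both were CD11b+. The genes of the gates are Ptprc (CD45), Itgam (CD11b), Siglecf, Adgre1 (F4/80), Timd4 and Csf1r (CD115). Their differences can follow in part from the gates where a gate used the protein, and are given as a description. CD115 was used for PMs only, so no gate selected on Csf1r in AMs, MG or KCs. Lung and liver were digested with collagenase and DNase, the brain was dissociated mechanically and PMs were flushed out of the peritoneal cavity, and the effect of this cannot be told apart from that of the tissue.

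AMs lie on the alveolar epithelium and take up and break down surfactant, the film of lipids and proteins that keeps the alveoli open. They depend on GM-CSF, a growth factor made by the epithelium, which induces the lipid-sensing nuclear receptor PPAR-gamma, and without either of them surfactant lipids build up in the lung. MG, KCs and PMs depend mainly on the CSF1 receptor, which binds the growth factors CSF1 and IL-34. The comparison asks which genes and pathways set the lung macrophage apart from the macrophages of every other tissue studied.

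The libraries held 29569486 to 40277178 reads on genes (32246467 to 38307792 for AMs), and a gene without a read had at most 0.0695 to 0.110 CPM (3 reads, the upper limit at 95% confidence, which covers counting error only). CPM are read counts scaled to library size (counts per 1000000 reads) after TMM normalization over the 12 libraries. Libraries of the same tissue differed by more than counting error, and no pair was a repeat of the same library. The replicate KC 1 stood apart from KC 2 and KC 3, its chi-squared over degrees of freedom being 308 to 321 against 12.9 to 86.5 for all other pairs, and held the highest summed levels of T and NK cell genes, dendritic cell genes and MHC class II genes of the 12 libraries. For most named genes whose call or printed fold change against KCs rests on it, the result without it is also given. The AM libraries lay close together, with a mean Euclidean distance in log2 CPM of 41.9 among themselves against 196 to PMs, 201 to KCs and 228 to MG. The labels do not tie the libraries to separate mice, so p-values measure the spread between the libraries, which may be technical in part.

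The label was checked first with Car4, Siglecf and Pparg, which mark AMs. Car4, which encodes a membrane-bound carbonic anhydrase (GRCm38, chr11:84957786-84966044, plus strand), reached 1071, 1054 and 979 CPM in the AM libraries, 0.18, 9.03 and 0.94 in KCs and 0.146, 0 and 0 in PMs, and had no read in MG. Siglecf, the sialic acid-binding receptor used in the gate (chr7:43351341-43359531, plus strand), reached 721, 718 and 686 CPM in the AM libraries, 45.7, 40.4 and 47.8 in MG, 6.42, 14.4 and 0.846 in KCs and 0.329, 0 and 0 in PMs. Pparg, which encodes PPAR-gamma (chr6:115360951-115490399, plus strand), reached 370.05, 367 and 399 CPM in the AM libraries, 25, 33.5 and 38.1 in KCs and 0.146, 1.82 and 1.37 in PMs, and had no read in MG. For all 3 genes, every AM library lay above every library of the other tissues. The log2 fold change (± SE, given below for the nearest tissue after the levels), from the quasi-likelihood test of edgeR with p-values adjusted over all genes by Benjamini-Hochberg, was smallest against KCs for Car4 (8.25 ± 1.20, adjusted p = 0.000472) and Pparg (3.55 ± 0.49, adjusted p = 0.000321). Of 20 AM marker genes, 16 passed the thresholds of an adjusted p of 0.05 and a log2 fold change of 1.5 against each of the 3 other tissues, while 3.31% of all genes tested did so. The summed level of the 20 markers was 38013 to 40084 CPM in AMs, 3414 to 3828 CPM in KCs, 3355 to 3495 CPM in PMs and 105 to 125 CPM in MG. The genes are known AM markers, so their direction checks the label and is no finding.

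The 4 remaining markers did not pass the thresholds against every other tissue, although AMs lay above all 9 other libraries for 18 of the 20 markers. Marco, a scavenger receptor for bacteria and particles, was at 783 to 951 CPM in AMs, 1304 to 2038 CPM in KCs and 638 to 1076 CPM in PMs, and at 0.0232 to 0.201 CPM in MG. Fabp4, a fatty acid-binding protein, was at 120.3 to 167 CPM in AMs and 460.3 to 770.1 CPM in PMs, and PMs were the higher of the pair (log2 fold change -2.19 ± 0.45, adjusted p = 0.00259). Lpl, which encodes lipoprotein lipase, was at 3239 to 4097 CPM in AMs and above all 9 other libraries, but its log2 fold change was 1.06 ± 0.20 (adjusted p = 0.0013) against PMs and 1.44 ± 0.20 (adjusted p = 0.000149) against KCs and did not pass the threshold on size. Kcnip4, a potassium channel-interacting protein at 5.95 to 8.54 CPM in AMs, missed only the threshold on the adjusted p against PMs (2.88 ± 1.12, adjusted p = 0.0647). It was called in all 3 comparisons when any of the KC libraries was left out.

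**Figure D1:**
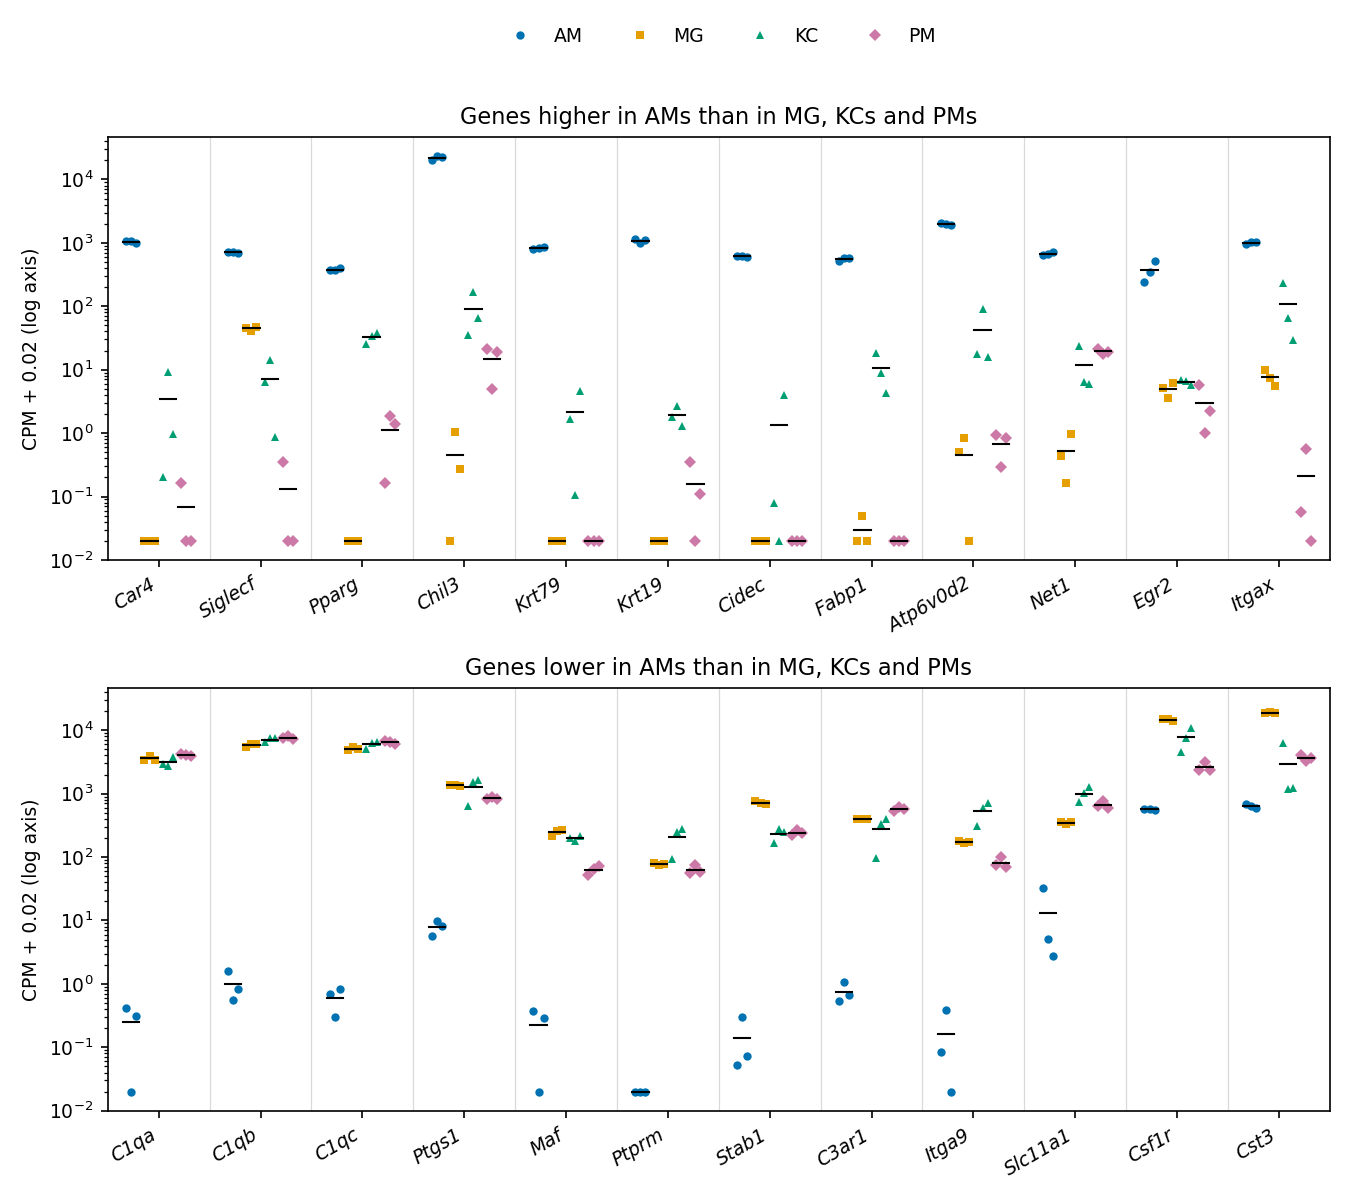
Level of 12 genes that were higher and 12 that were lower in AMs than in each other tissue, as CPM + 0.02 on a log axis. Points are single libraries and bars are the mean of the 3 libraries of a tissue, and the AM points do not overlap with those of MG, KCs or PMs for any of the 24 genes.

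Of 15732 genes tested, 2371 were higher in AMs than in MG (15.1%) and 2865 were lower (18.2%). Against KCs, 1231 genes were higher (7.82%) and 2637 lower (16.8%), and against PMs 1435 were higher (9.12%) and 1945 lower (12.4%). Against the mean of the 3 other tissues, 1603 genes were higher (10.2%) and 2059 lower (13.1%). The 3 comparisons share the AM libraries, and 520 genes were higher (3.31%) and 882 lower (5.61%) in all 3 of them. Without KC 1, these counts were 609 and 992, and 500 of the 520 and 843 of the 882 genes were still called. For all 520 higher genes the AM libraries lay above the 9 others, and for 766 of the 882 lower genes they lay below them, while among all genes tested 12.9% had AMs above and 9.74% had AMs below all 9 libraries. These shares of all genes tested are the background for the counts of list members given below, for each comparison and for all 3. In bulk RNA, fewer cells that express a gene and less of its RNA per cell cannot be told apart.

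Genes that were higher in AMs were mostly protein coding, with 486 of the 520 (93.5%) against 82.7% of all genes tested, while 612 of the 882 lower genes (69.4%) were. The lower genes held 59 antisense RNAs, 56 lincRNAs, 38 processed transcripts and 68 unconfirmed gene models, and the higher genes held 8, 9, 3 and 4 of these. The library kit did not keep the strand, so reads of an antisense gene and of its partner cannot be told apart. The smallest of the 3 log2 fold changes had a median of 2.99 over the higher and -3.47 over the lower genes, and it went beyond 5 for 137 higher and 278 lower genes. The nearest tissue was KCs for 221, MG for 151 and PMs for 148 of the higher genes, and PMs for 373, KCs for 260 and MG for 249 of the lower genes. No read was found in any of the 9 other libraries for 30 of the higher genes, and in any AM library for 149 of the lower genes.

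**Figure D2:**
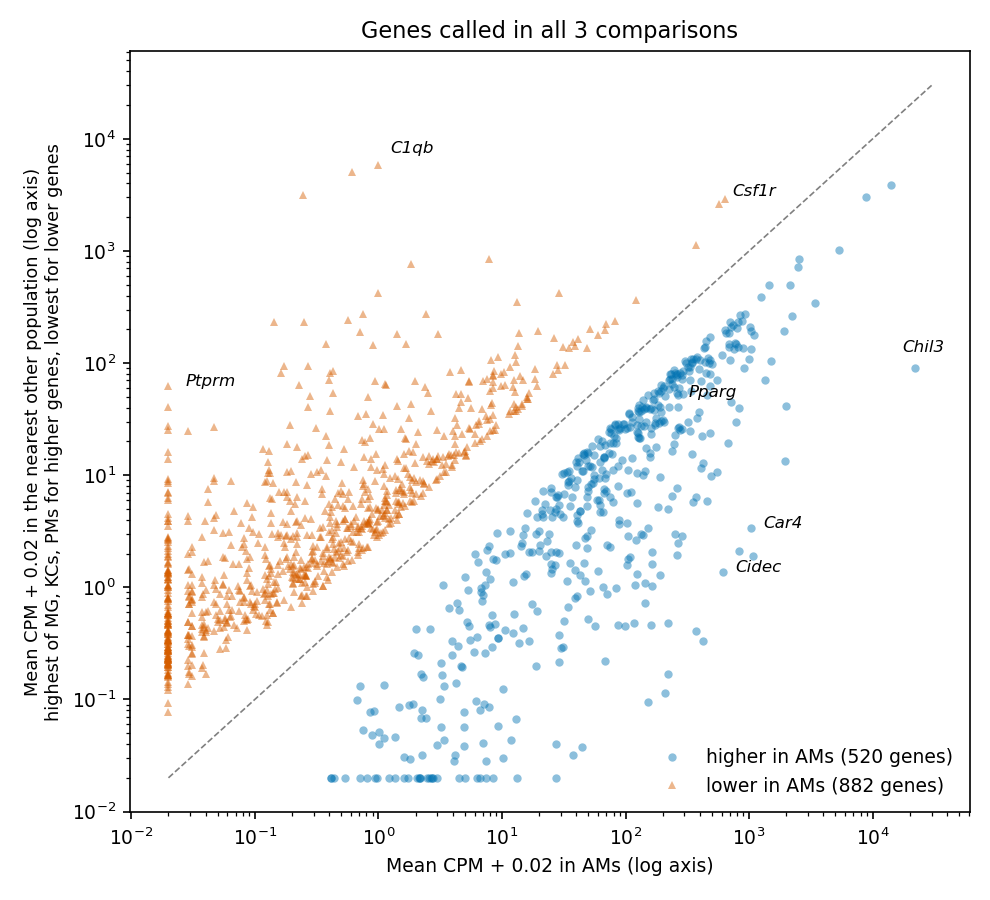
Mean level in AMs (horizontal axis) of the 520 genes called higher (circles) and the 882 genes called lower (triangles) against the level in the nearest other tissue, which is the highest of MG, KCs and PMs for higher genes and the lowest for lower genes, as CPM + 0.02 on log axes. Each point is a gene and the dashed line marks equal levels, and the groups lie on opposite sides of it because the genes were chosen by this difference.

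The higher genes with a mean log2 CPM above 3 over the 12 libraries were ranked by the smallest of their 3 fold changes, and the first 15 were of mixed function. This filter left out genes with few reads outside of AMs. Ear1 and Krt19 were such genes, with smallest log2 fold changes of 10.41 and 9.15. Chil3 (Ym1), a secreted chitinase-like protein, reached 19987, 23306 and 22735 CPM in the AM libraries, 0, 1.03 and 0.252 in MG, 35.4, 169 and 64.3 in KCs and 20.9, 4.98 and 18.6 in PMs. It took 2.12% of all reads in AMs. Its log2 fold change was 7.94 ± 1.01 against KCs (adjusted p = 7.99e-05). Egr2, a zinc finger transcription factor, reached 243, 348 and 514 CPM in the AM libraries, 5.05, 3.58 and 6.16 in MG, 6.78, 6.67 and 5.79 in KCs and 5.74, 0.984 and 2.18 in PMs. This gave a log2 fold change of 5.84 ± 0.56 against KCs (adjusted p = 8.77e-06). The 3 AM libraries spread over a wider range for Egr2 than for Chil3, yet the lowest of them lay far above the highest other library for both genes.

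Atp6v0d2, a subunit of the proton pump that acidifies lysosomes, reached 2063, 1977 and 1912 CPM in the AM libraries, 0.487, 0.803 and 0 in MG, 17.6, 91.8 and 16 in KCs and 0.914, 0.268 and 0.805 in PMs. Its log2 fold change was 5.57 ± 0.85 against KCs (adjusted p = 0.000313). Net1, an activator of the GTPase RhoA, was at 646 to 722 CPM in AMs and 0.143 to 23.7 CPM in the other libraries (5.13 ± 0.59 against PMs). Kcna3, a voltage-gated potassium channel, was at 206 to 333 CPM in AMs and 0.119 to 17.6 CPM elsewhere (5.07 ± 0.73 against MG). AMs stood alone in all 3 cases, and the highest value outside of the lung came from KC 2 for Atp6v0d2 and from KC 1 for Net1 and Kcna3. Olr1, a receptor for oxidized lipoproteins, was at 384 to 499.8 CPM in AMs and 1.03 to 15.2 CPM elsewhere (5.05 ± 0.34 against PMs). Sulf2, which removes sulfate from heparan sulfate, was at 776 to 880.3 CPM against 3.36 to 67.3 CPM (4.40 ± 0.42 against KCs).

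Lmna, which encodes the nuclear lamins A and C, was at 1305 to 1431 CPM in AMs and 2.64 to 74 CPM elsewhere (4.24 ± 0.33 against PMs). Afap1, an actin filament-associated protein, was at 158 to 216 CPM against 0.219 to 10.8 CPM (4.29 ± 0.69 against MG). Atp10a, a phospholipid flippase, was at 265 to 366 CPM against 0.3 to 37.9 CPM (3.73 ± 0.72 against PMs). The largest of these other values came from PMs for Lmna and Atp10a and from MG for Afap1. Dmxl2, a partner of the proton pump, was at 234 to 238 CPM against 12.2 to 18.8 CPM, with nearly the same level in the 3 other tissues (3.84 ± 0.17 against MG). Klhdc4 (749 to 859 against 20.9 to 43.7 CPM) and Tmem154 (320.2 to 370.1 against 0 to 18.1 CPM) were also among the 15 genes, and the remaining members, Siglecf and Sqle, are described with their groups. The largest adjusted p of the 15 genes in any of the 3 comparisons was that of Sqle, at 0.00411.

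The genes that were furthest below the other tissues in AMs included the 3 chains of C1q, the molecule that starts the classical complement pathway. C1qa reached 0.39, 0 and 0.292 CPM in the AM libraries, 3414, 3887 and 3451 in MG, 2892, 2774 and 3733 in KCs and 4218, 4101 and 3872 in PMs. This gave a log2 fold change of -13.76 ± 0.64 against KCs (adjusted p = 3.82e-08). C1qb reached 1.56, 0.535 and 0.796 CPM in the AM libraries, 5382, 6164 and 5966 in MG, 6402, 7426 and 7553 in KCs and 7428, 8141 and 7400.5 in PMs (-12.57 ± 0.43 against MG, adjusted p = 3.48e-09). C1qc reached 0.683, 0.282 and 0.796 CPM in the AM libraries, 4831, 5389.8 and 5069 in MG, 5138, 6389 and 6406 in KCs and 6763, 6552 and 6039 in PMs (-13.08 ± 0.39 against MG, adjusted p = 1.85e-09). The 3 genes lie next to each other on chromosome 4 (C1qa at chr4:136895917-136898803, minus strand), and each of them was nearly silent in AMs and strongly expressed in every other tissue. Ptprm, a receptor tyrosine phosphatase of cell contacts, had no read in AMs against 56.3 to 276 CPM elsewhere, which makes it at least 2169-fold lower than in the lowest other tissue (at a floor of 3 counts over the 3 AM libraries). Cmklr1, the receptor for the attractant chemerin, had no read in AMs against 20.6 to 143 CPM, at least 1403-fold lower.

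Other genes without a read in AMs were Rasgrp3, an activator of Ras proteins (5.58 to 372 CPM elsewhere, at least 952-fold lower, or 203-fold without KC 1), Abcg3, an ABC transporter (13.6 to 316 CPM, at least 482-fold), Ctla2b, a protease inhibitor-like protein (8.02 to 197 CPM, at least 296-fold), and Ccl24, a chemokine for eosinophils (3.66 to 663 CPM, at least 157-fold). Ctla2b has a close relative, Ctla2a, so its reads may be split between them. Plxna4, a semaphorin receptor, had 1 read in AMs, and the ratio of the lowest other tissue to AMs was 2825 (95% counting interval 466 to 102538). Rhobtb1, a BTB domain protein, had 3 reads, with a ratio of 1001 (95% counting interval 321 to 4553). Stab1, a scavenger receptor, was at 0.0325 to 0.282 CPM in AMs and 167 to 761 CPM elsewhere (-10.82 ± 0.47 against KCs, adjusted p = 2.49e-08). Itga9, an integrin chain, was at 0 to 0.366 CPM against 70.7 to 717 CPM (-9.10 ± 0.64 against PMs, adjusted p = 7.11e-07). St3gal5, which makes the ganglioside GM3, was at 0 to 0.683 CPM against 226 to 939.7 CPM (-10.11 ± 0.87 against MG, adjusted p = 2.04e-06). Bank1, an adaptor protein known from B cells, was at 0 to 0.456 CPM against 82 to 415 CPM (-9.39 ± 0.74 against MG, adjusted p = 9.81e-07). All reads of St3gal5 and Bank1 in AMs came from AM 1, and without it their fitted log2 fold changes were -16.05 and -14.74, which depend on the prior count.

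Markers of the other macrophages were far lower in AMs than in the tissue they mark, which is fixed in part by the choice of those genes. The summed level of 10 markers each was 125 to 149 CPM in AMs against 31508 to 32866 CPM in MG for the MG markers, 153 to 188 CPM against 18789 to 32521 CPM in KCs for the KC markers, and 890.3 to 1276 CPM against 49838 to 56640 CPM in PMs for the PM markers. AMs lay above KCs (337 to 439 CPM) and MG (2.09 to 4.25 CPM) in the PM markers. Of the 10 markers each of MG, KCs and PMs, 2, 2 and none were lower in AMs than in all 3 other tissues. The called genes were Tmem119 (no read in AMs, 0.51 to 4889 CPM elsewhere) and Crybb1 for MG, and Cd5l (0 to 0.163 against 0.765 to 7992 CPM) and Folr2 (0 to 0.535 against 1.26 to 1341 CPM) for KCs. Of 14 core macrophage genes, 4 were lower in all 3 comparisons (28.6%, against 5.61% of all genes) and none was higher. Csf1r, the receptor for CSF1 and part of the PM gate, was at 561 to 582 CPM in AMs, 2321 to 3178 CPM in PMs, 4605 to 10872 CPM in KCs and 13756 to 15292 CPM in MG. Itgam was at 2.54 to 4.48 CPM in AMs against 51.8 to 4873 CPM, as the gates on CD11b selected (low for AMs, positive for the other tissues). Ptprc was at 755 to 848 CPM in AMs and 249.5 to 668 CPM elsewhere, and Cd68, a lysosomal protein of macrophages, was at 1637 to 1856 CPM in AMs and 1628 to 1872 CPM in KCs.

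The transcription factor Maf, which restrains self-renewal of macrophages, was also among the lower core genes. Maf reached 0.358, 0 and 0.265 CPM in the AM libraries, 218, 256 and 265 in MG, 201, 177 and 212 in KCs and 52.4, 65.2 and 72.4 in PMs. This gave a log2 fold change of -8.26 ± 0.49 against PMs (adjusted p = 1.9e-07). This factor was nearly silent in AMs, with no overlap with any other library. Among 18 transcription factors known from macrophages of other tissues, 3 were lower in all 3 comparisons and none was higher. Among the 3 were Maf and Mef2c, a factor of MG at 2.51 to 4.56 CPM in AMs and 4.95 to 708 CPM elsewhere (-2.12 ± 0.54 against KCs, adjusted p = 0.00822), which was not called without KC 1 (smallest log2 fold change -0.96). Sall1, Gata6 and Spic, the factors of MG, PMs and KCs, were at most at 0.976 CPM in AMs, as they were in the tissues they do not mark.

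Of 14 transcription factors tied to lung macrophages, Pparg, Klf4 and Egr2 were higher in all 3 comparisons. Klf4, a Krüppel-like factor, reached 95.2, 98.5 and 114 CPM in the AM libraries, 6.42, 4.56 and 5.36 in MG, 17.8, 6.38 and 4.51 in KCs and 36.3, 18.2 and 24.6 in PMs. Its log2 fold change was 1.96 ± 0.43 against PMs (adjusted p = 0.00415). Cebpb, a C/EBP factor needed for AMs, was at 1769.8 to 2223 CPM and above all 9 other libraries, but its log2 fold change against PMs was 0.98 ± 0.19 (adjusted p = 0.00149). Bhlhe40 was likewise at 575 to 714 CPM against 293 to 385 CPM in PMs (0.95 ± 0.25, adjusted p = 0.0107), and both stayed below the threshold on size. Its relative Bhlhe41 was at 75.4 to 88.4 CPM in AMs and 81 to 122 CPM in MG, with overlap between them. Each of these repressors was thus also high in 1 other tissue.

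A recognition core of Maf proteins, TGCTGAC, was searched on both strands in the RefSeq promoters of GRCm38.p6, which run from 250 bases before to 50 bases after a start site. A gene was counted once if any of its promoters held a match. This was so for 41 of the 539 lower genes with a promoter in the table (7.61%) and for 15 of 409 higher genes (3.67%). It was so for 4.66% of the tested genes with a promoter and for 5.28% of all 27025 genes with a promoter. A match of these letters is a description and no binding site. The promoter of Rhobtb1 with the match, 1 of 3 in the table for this gene (chr10:69212407-69212706, plus strand), is shown as an example with the match, here on the other strand, in capitals:
Rhobtb1: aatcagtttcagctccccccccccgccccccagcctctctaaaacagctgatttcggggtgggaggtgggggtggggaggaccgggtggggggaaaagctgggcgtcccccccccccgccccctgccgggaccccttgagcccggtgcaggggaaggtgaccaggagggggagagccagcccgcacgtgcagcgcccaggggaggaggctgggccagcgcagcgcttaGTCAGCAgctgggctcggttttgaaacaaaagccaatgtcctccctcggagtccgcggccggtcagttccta

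Genes of the growth factor pathways were higher in part. Of 14 genes on the list of GM-CSF receptor and signalling genes, 3 were higher in all 3 comparisons. The only lower member, Csf1r, is the receptor for CSF1 and IL-34 and not for GM-CSF. The median log2 fold change of the list was 1.75 against MG, 0.80 against KCs and 0.54 against PMs. The median of all genes tested was -0.08, -0.08 and -0.07 in these comparisons. Csf2ra, the GM-CSF receptor alpha chain, was at 749, 657 and 749.7 CPM in AMs, 419 to 582 CPM in KCs, 268 to 319.7 CPM in PMs and 116 to 124 CPM in MG. Its AM libraries lay above all others, but the log2 fold change against KCs was only 0.53 ± 0.14 (adjusted p = 0.0116). Csf2rb, the signalling chain, was at 832, 997 and 915 CPM in AMs and 313 to 423 CPM in KCs, with a log2 fold change of 1.29 ± 0.15 (adjusted p = 3.19e-05), and its reads may be shared with the near-identical Csf2rb2. Both receptor chains were thus most abundant in AMs by less than the threshold.

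The 3 called members of this list differed more, and whether GM-CSF induced them was not tested. Cish, a feedback inhibitor that STAT5 induces, was at 77.4, 74.5 and 85.9 CPM in AMs and 0.327 to 14.2 CPM elsewhere (3.80 ± 0.88 against KCs, adjusted p = 0.00482). Socs2, another inhibitor of this class, was at 54.7, 44.7 and 50.7 CPM against 0 to 17.5 CPM (2.06 ± 0.50 against KCs, adjusted p = 0.00613). Pim1, a kinase induced by STAT5, was also called higher (1.96 ± 0.70 against KCs, adjusted p = 0.0417), but lost its call in 10 of 12 fits that each left out 1 library. Of 23 genes of TGF-beta receptors and signalling, none was higher in all 3 comparisons and 2 were lower (8.70%, against 5.61% of all genes). These were the co-receptor Eng (0.976 to 1.86 CPM in AMs against 5.37 to 141 CPM) and the signal transducer Smad3 (0.451 to 1.33 against 3.23 to 153 CPM). Tgfbr1 was at 347 to 444 CPM in AMs, below MG (1845 to 2193 CPM) and above KCs and PMs (41.5 to 158 CPM).

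Of 19 tested PPAR-gamma target genes, 4 were higher in all 3 comparisons and none was lower, with 17 higher than in MG, 10 higher than in KCs, and 6 higher and 1 lower than in PMs. Their median log2 fold change was 3.81, 2.32 and 1.04 in these comparisons. Cidec, which fuses lipid droplets, reached 619, 622 and 602 CPM in the AM libraries and 0.06, 0 and 3.98 in KCs, and had no read in MG and PMs. This gave a log2 fold change of 8.85 ± 1.44 against KCs (adjusted p = 0.0021), or 14.21 without KC 3, which held nearly all reads outside of AMs. Angptl4, an inhibitor of lipoprotein lipase, reached 265, 306 and 234 CPM in the AM libraries, 0.278, 0.0287 and 0.252 in MG, 7.14, 27.3 and 9.8 in KCs and 31.5, 28.1 and 19.1 in PMs (3.36 ± 0.48 against PMs, adjusted p = 0.000218). Fabp1, the liver type of the fatty acid-binding proteins, reached 510.03, 574 and 574 CPM in the AM libraries, 0, 0.0287 and 0 in MG and 18.6, 8.94 and 4.29 in KCs, and had no read in PMs (5.70 ± 0.51 against KCs, adjusted p = 1.92e-05). The AM libraries were close to each other for these genes and far above the others. Abcg1, a transporter that exports cholesterol, was at 1710.3, 2193 and 1806 CPM in AMs and 33.8 to 250.01 CPM elsewhere (3.30 ± 0.23 against KCs, adjusted p = 6.09e-07).

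Of 42 tested genes of lipid uptake and storage, 8 were higher in all 3 comparisons and none was lower: Olr1, Fabp1, Cidec, Abcg1, Cideb, Dgat2, Mgll and Plin3. Dgat2, the last step of triglyceride synthesis, was at 144, 161 and 153 CPM in AMs and 0.358 to 6.42 CPM elsewhere (5.50 ± 0.57 against KCs, adjusted p = 1.57e-05). Mgll, which releases the last fatty acid from glycerol, was at 269, 258 and 262 CPM in AMs and nearest in MG at 74 to 77.2 CPM (1.80 ± 0.43 against MG, adjusted p = 0.00426). Plin3, a lipid droplet coat protein, was at 261, 239.7 and 212 CPM in AMs and 14.1 to 79.8 CPM elsewhere (1.71 ± 0.18 against PMs, adjusted p = 2.1e-05). A gene of this list was lower in all 3 comparisons in 8 of the 12 fits that left out 1 library. Over the whole list, 23 genes were higher and 2 lower than in MG, 14 higher and 6 lower than in KCs, and 15 higher and 5 lower than in PMs. Plin2, the main droplet coat protein, was at 2009 to 2321 CPM in AMs and 961 to 1071 CPM in PMs (1.08 ± 0.16, adjusted p = 0.000269), below the threshold on size. Cd36, a fatty acid receptor, was highest in PMs at 870.4 to 1078 CPM against 419 to 517 CPM in AMs (-1.0003 ± 0.29, adjusted p = 0.0169). Fabp5 was at 234 to 359 CPM in AMs and 145 to 214 CPM in PMs (0.77 ± 0.34, adjusted p = 0.0972).

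Apoe, the apolipoprotein that carries lipids out of macrophages, went the other way. It was at 116, 80.2 and 115 CPM in AMs, 175 to 253 CPM in MG, 17635 to 21404 CPM in KCs and 52748 to 58748 CPM in PMs. AMs were below all 9 libraries, and the log2 fold change was -7.60 ± 0.28 (adjusted p = 9.82e-09) against KCs and -9.08 ± 0.30 (adjusted p = 5.98e-09) against PMs, but -1.05 ± 0.21 (adjusted p = 0.00153) against MG, which is under the threshold on size. Abca1, the other cholesterol exporter, was at 82.5 to 110.4 CPM in AMs and 122 to 527 CPM elsewhere, and its log2 fold change against PMs was -0.89 ± 0.40 (adjusted p = 0.101).

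**Figure D3:**
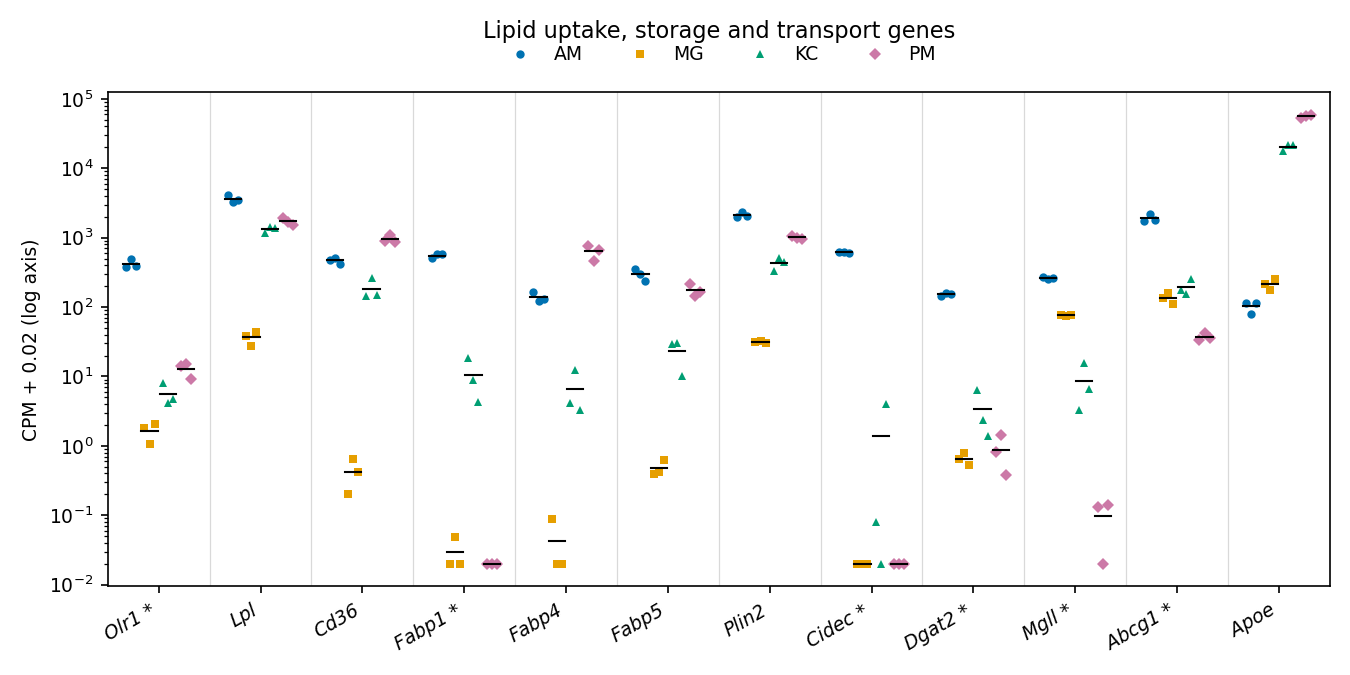
Level of 12 lipid genes in each ex vivo library, as CPM + 0.02 on a log axis, with a point for each library and a bar for the mean of each tissue. Genes marked by an asterisk were called in all 3 comparisons; Fabp4 and Cd36 were highest in PMs, and Apoe was lowest in AMs.

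Of 29 genes of fatty acid oxidation, 3 were higher in all 3 comparisons and none was lower. Among the 3 were genes of peroxisomes, which shorten long fatty acids: Ehhadh (43.6 to 47.6 CPM in AMs against 2.39 to 15 CPM, 2.07 ± 0.45 against MG, adjusted p = 0.00254) and Acaa1b (201 to 303 against 0 to 4.65 CPM, 7.10 ± 1.01 against KCs, adjusted p = 0.000184). Acaa1b has a close relative, Acaa1a, with which it may share reads. AMs lay above all 9 libraries for 18 of the 29 genes, against 12.9% of all genes tested. The median log2 fold change of the list was 1.54 against MG, 1.08 against KCs and 0.70 against PMs. Of 22 genes of fatty acid synthesis and desaturation, none was higher and 2 were lower, among them Mlxipl, which encodes the carbohydrate-responsive factor ChREBP (0 to 0.0796 CPM in AMs against 0.591 to 299 CPM, -6.999 ± 1.43 against KCs, adjusted p = 0.00231, or -4.58 without KC 1). The second was Lpcat1, which lost its call without AM 1, AM 3 or PM 2.

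Among the pathway lists, cholesterol synthesis held the largest share of genes that were higher in AMs. Of 24 tested genes, 12 were higher in AMs in all 3 comparisons (50% against 3.31% of all genes) and none was lower in any, with 19 higher than in MG, 17 higher than in KCs and 12 higher than in PMs. AMs lay above all 9 other libraries for 18 of the 24 genes, against 12.9% of all genes tested. The median log2 fold change was 2.20 against MG, 1.88 against KCs and 1.56 against PMs. The summed level was 1537 to 1790 CPM in AMs, 573 to 658 CPM in PMs, 443 to 536 CPM in KCs and 354 to 364 CPM in MG. Because several genes lay close to the threshold on size, 7 to 13 of them were called when 1 library was left out, with 7 without AM 3 and 11 without KC 1.

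The genes span the pathway from its first steps to its last. Hmgcs1, which makes HMG-CoA (chr13:119690379-119708260, plus strand), reached 159.9, 177 and 180.4 CPM in the AM libraries, 32.5, 25.1 and 29.8 in MG, 8.22, 22.9 and 26.9 in KCs and 21.4, 22.9 and 21.8 in PMs. Its log2 fold change was 2.56 ± 0.33 against MG (adjusted p = 6.19e-05). Mvd, which forms isopentenyl diphosphate, reached 138, 116 and 133 CPM in the AM libraries, 10.6, 9.37 and 7.97 in MG, 24.8, 15.5 and 16.2 in KCs and 20.4, 23.5 and 20.4 in PMs (2.59 ± 0.20 against PMs, adjusted p = 1.76e-06). Fdft1, the squalene synthase, was at 45.5, 49.96 and 54.5 CPM in AMs against 2.26 to 9.72 CPM (2.79 ± 0.46 against MG, adjusted p = 0.000352). AMs exceeded every other library at each of these steps. Sqle, the squalene epoxidase, reached 99.3, 115 and 117 CPM in the AM libraries, 2.92, 2.52 and 3.32 in MG, 18.6, 1.58 and 0.971 in KCs and 5.59, 6.35 and 2.51 in PMs (3.97 ± 0.89 against KCs, adjusted p = 0.00411), and among the other tissues its highest level was that of KC 1. Cyp51, the lanosterol demethylase, was at 104, 147 and 130.2 CPM in AMs against 9.78 to 24.8 CPM (2.55 ± 0.19 against KCs, adjusted p = 1.21e-06), Msmo1, a methylsterol oxidase, at 164, 161 and 156 CPM against 18.9 to 41.3 CPM (2.01 ± 0.21 against MG, adjusted p = 8.75e-06), and Hsd17b7, a ketosteroid reductase, at 26.6, 21.5 and 33.7 CPM against 0.33 to 8.2 CPM (2.11 ± 0.51 against PMs, adjusted p = 0.00733). Acat2, Pmvk, Idi1, Lss and Dhcr7 were called with smaller margins and lost the call in some fits without 1 library.

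A regulator of these enzymes was less distinct. Srebf2, which encodes the transcription factor SREBP2, was at 116 to 155 CPM in AMs and 75.7 to 168 CPM in KCs (0.32 ± 0.26, adjusted p = 0.351, or 0.78 without KC 1, the highest of the KC libraries).

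The promoters of these enzymes are shown because SREBP2 acts on them through sterol elements next to CCAAT boxes, the sites of the factor NF-Y. CCAAT, searched on both strands, was found in any promoter of 16 of the 17 cholesterol synthesis genes in the RefSeq table. This was so for 41.1% of all genes with a promoter and 42.5% of the tested genes with a promoter. The sterol element-like TCACNNCAC was found in 4 of the 17, all among the 10 of the called genes with a promoter (Dhcr7, Hmgcs1, Hsd17b7 and Msmo1), against 4.37% of all. The matches are a description of these windows and say nothing about binding, and members of a pathway are not independent of each other. The promoters of Hmgcs1 (chr13:119690101-119690400, plus strand), Msmo1 (chr8:64733529-64733828, minus strand) and Hsd17b7 (chr1:169969156-169969455, minus strand) follow from 5′ to 3′, with the matches to both motifs in capitals (CCAAT or its reverse ATTGG):
Hmgcs1: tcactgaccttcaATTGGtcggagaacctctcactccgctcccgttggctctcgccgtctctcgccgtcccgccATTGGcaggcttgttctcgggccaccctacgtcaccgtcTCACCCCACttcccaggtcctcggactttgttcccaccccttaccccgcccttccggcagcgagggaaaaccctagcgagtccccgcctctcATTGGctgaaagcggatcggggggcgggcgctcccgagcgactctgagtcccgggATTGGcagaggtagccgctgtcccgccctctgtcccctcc
Msmo1: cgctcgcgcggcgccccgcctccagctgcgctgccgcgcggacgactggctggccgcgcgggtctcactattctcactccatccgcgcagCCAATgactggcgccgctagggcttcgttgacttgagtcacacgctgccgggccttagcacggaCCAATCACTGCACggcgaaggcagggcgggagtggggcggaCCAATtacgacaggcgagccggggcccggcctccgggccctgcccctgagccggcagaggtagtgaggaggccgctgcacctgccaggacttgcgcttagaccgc
Hsd17b7: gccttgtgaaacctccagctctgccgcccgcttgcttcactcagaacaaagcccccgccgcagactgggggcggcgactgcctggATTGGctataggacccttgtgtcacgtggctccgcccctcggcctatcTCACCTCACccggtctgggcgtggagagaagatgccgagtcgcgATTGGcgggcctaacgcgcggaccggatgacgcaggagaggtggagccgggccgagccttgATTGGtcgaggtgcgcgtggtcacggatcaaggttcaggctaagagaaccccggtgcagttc
Hmgcs1 held 4 matches to CCAAT and 1 to the sterol element, and Msmo1 and Hsd17b7 held 3 and 1 each. In Msmo1, 1 CCAAT match overlaps with the sterol element-like match.

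Of 26 interferon-stimulated genes, 8 were lower in AMs in all 3 comparisons (5.61% of all genes were) and none was higher. By tissue, 25 were lower than in KCs, 15 lower than in PMs, and 10 lower and 2 higher than in MG. Of all genes, 16.8% were lower than in KCs, 12.4% lower than in PMs and 18.2% lower than in MG. The median log2 fold change was -5.43 against KCs, -2.02 against PMs and -0.54 against MG, and the summed level was 318 to 378 CPM in AMs, 418 to 459 CPM in MG, 998 to 1316 CPM in PMs and 4223 to 4682 CPM in KCs. Irf9, the DNA-binding part of the interferon-induced complex ISGF3, reached 33.4, 35.1 and 29.2 CPM in the AM libraries, 104, 89.9 and 95.5 in MG, 142, 137 and 137 in KCs and 98.7, 120.2 and 100.02 in PMs. This gave a log2 fold change of -1.57 ± 0.13 against MG (adjusted p = 1.36e-06). Rtp4, an interferon-induced chaperone, reached 4.85, 3.8 and 4.19 CPM in the AM libraries, 27.2, 26.5 and 31.1 in MG, 239, 391 and 319 in KCs and 126, 159 and 119 in PMs (-2.72 ± 0.20 against MG, adjusted p = 6.81e-07). Mx1, a GTPase that blocks viruses, was at 0.345 to 1.32 CPM in AMs against 6.25 to 62 CPM (-3.22 ± 0.42 against MG, adjusted p = 6.27e-05). Usp18, which removes the ubiquitin-like ISG15, was at 0.265 to 2.54 against 9.09 to 100.4 CPM (-2.87 ± 0.54 against MG, adjusted p = 0.00086). AMs were below all 9 libraries for each of these genes, and KCs were the highest tissue.

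The others were Mx2, Xaf1, Ifi209 and Oasl2, and Oasl2 lost its call without AM 3 or MG 1. Irf7, the master regulator of type I interferon, was at 7.45 to 10.6 CPM in AMs, 13.3 to 14.1 CPM in MG, 72.2 to 97.2 CPM in PMs and 1016 to 1096 CPM in KCs, so AMs were below all other libraries but close to MG (-0.60 ± 0.16, adjusted p = 0.00714). An interferon element-like run, GAAANNGAAA, was present in any promoter of 8 of the 18 genes of the list with a promoter, against 3.99% of all genes. It was present for none of the 4 called genes with a promoter.

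**Figure D4:**
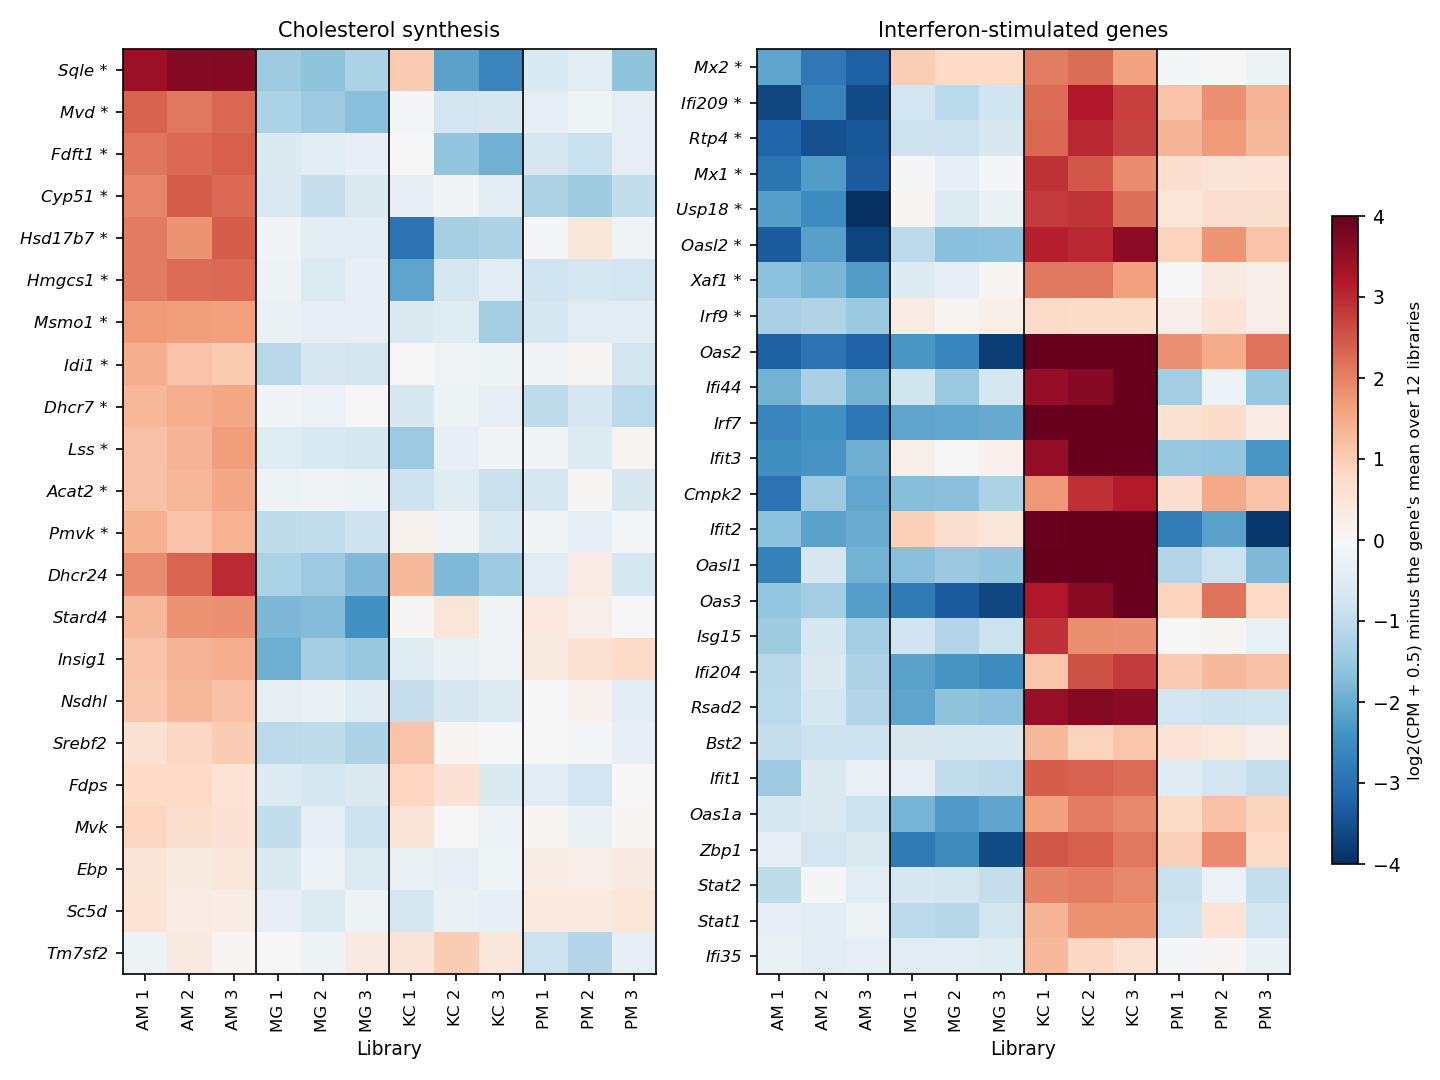
Cholesterol synthesis genes (22 of the 24 tested) and interferon-stimulated genes (rows) in the 12 ex vivo libraries (columns), as log2(CPM + 0.5) minus the mean of the gene over the 12 libraries, with colours limited at 4. An asterisk marks genes called in all 3 comparisons, which were 12 higher in the first list and 8 lower in the second.

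Of 22 complement genes, 6 were lower in all 3 comparisons (27.3%, against 5.61% of all genes). The only higher gene (4.55%, against 3.31%) was Itgax, a chain of complement receptor 4 that is also CD11c. The median log2 fold change of the list was 1.14 against MG, -5.10 against KCs and -2.76 against PMs. Among the lower genes, C3ar1, the receptor for C3a, was at 0.521, 1.04 and 0.637 CPM in AMs against 98.2 to 624 CPM (-8.53 ± 0.55 against KCs, adjusted p = 3.74e-07). Itgam, also among them, was part of the gates. The central component C3 was not low, at 282 to 314 CPM in AMs, 386 to 557 CPM in PMs and 94.9 to 189.8 CPM in KCs. Itgax reached 952, 1047 and 1013 CPM in the AM libraries, 9.92, 7.34 and 5.61 in MG, 235, 64.3 and 29 in KCs and 0.0365, 0.537 and 0 in PMs (3.20 ± 0.72 against KCs, adjusted p = 0.00428), and among the other tissues it was highest in KC 1.

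Of 26 scavenger and apoptotic cell uptake genes, 5 were lower in all 3 comparisons (19.2%, against 5.61% of all genes). These were Stab1, Cd5l, Cxcl16, Gas6 and C1qa, which is also on the complement list, and Cd5l, Gas6 and C1qa are secreted. The only higher gene was Olr1 (3.85%, against 3.31% of all genes), and 2 were higher in 9 of the 12 fits that left out 1 library. Gas6, the ligand that bridges apoptotic cells to TAM receptors, had no read in AMs and 245 to 271 CPM in MG, 14.4 to 36.4 CPM in KCs and 4.09 to 10.1 CPM in PMs, at least 241-fold lower than in PMs. Its receptors were present: Axl was at 2803 to 3036 CPM in AMs and 953 to 2690.02 CPM in KCs (0.51 ± 0.36, adjusted p = 0.264, or 0.17 without KC 1) against 11.4 to 67 CPM in MG and PMs, and Mertk was at 434 to 517 CPM in AMs, within the range of KCs. AMs thus held transcripts of the receptors without a read of this ligand.

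Lectin receptors were higher in part. Of 33 Siglecs and lectin receptors, 5 were higher in all 3 comparisons (15.2%, against 3.31% of all genes) and none was lower. Among the 5 was Siglecf, whose protein was used in the AM gate. Clec7a (Dectin-1), a receptor for fungal beta-glucans, was at 928, 686 and 643 CPM in AMs against 8 to 206 CPM (2.5046 ± 0.33 against PMs, adjusted p = 0.000121). Lgals1, a secreted galectin, was at 582, 484 and 446 CPM against 1.41 to 107 CPM (2.36 ± 0.50 against PMs, adjusted p = 0.00332). Lgals3 was at 2794, 2331 and 2421 CPM against 1.69 to 994 CPM (1.58 ± 0.33 against KCs, adjusted p = 0.0026), with the call lost without KC 3. Clec4n (Dectin-2) lost its call without AM 1 or KC 1. Mrc1, the mannose receptor, was at 973 to 1309 CPM in AMs and 304 to 1307 CPM in KCs (0.47 ± 0.43, adjusted p = 0.409, or 0.07 without KC 1 and 0.97 without KC 3).

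Of 21 Toll-like receptors and adaptors, 1 was higher (4.76%) and 3 were lower (14.3%) in all 3 comparisons, against 3.31% and 5.61% of all genes. Tlr2, which senses bacterial lipopeptides, reached 927, 1148 and 1005 CPM in the AM libraries, 214, 208 and 204 in MG, 79.3, 171 and 206 in KCs and 167, 172 and 138 in PMs (2.30 ± 0.28 against MG, adjusted p = 3.98e-05). Its partner Tlr1 was at 0 to 0.325 CPM in AMs against 8.88 to 70.3 CPM (-7.02 ± 0.72 against PMs, adjusted p = 1.59e-05), with all of its reads from AM 1 (a fitted -11.89 without it), and Cd180 (4.08 to 5.04 against 34.1 to 138 CPM, -3.26 ± 0.21 against KCs, adjusted p = 3.43e-07) and its partner Ly86 (25.4 to 33.4 against 362 to 815 CPM, -3.88 ± 0.17 against PMs, adjusted p = 1.95e-08) were also lower. Of 10 MHC class II genes, 1 was lower in all 3, H2-Ob (0.254 to 0.846 against 4.64 to 135 CPM), while 5 were higher and 2 lower than in MG, 5 higher and 1 lower than in PMs, and 7 lower than in KCs. H2-Ab1 was at 418 to 609.9 CPM in AMs and 8689.8, 3336 and 3742 CPM in KCs, and the highest of these was KC 1. Of 10 Fc receptors, none was called in all 3 comparisons in either direction with all libraries, and 1 was lower without KC 1 or KC 3.

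Of 19 integrin subunits, 2 were higher (Itgax and Itgad, chains that lie side by side on chromosome 7) and 2 were lower (Itgam and Itga9). These are 10.5% each, against 3.31% higher and 5.61% lower among all genes, and 4 were higher without KC 1. Itgad was at 27.3 to 32.1 CPM in AMs against 0 to 0.81 CPM (6.77 ± 1.24 against KCs, adjusted p = 0.00194). Of 22 keratins and cell junction genes, which are known from epithelia, 8 were higher in all 3 comparisons and none was lower, while 2 were lower than in MG, 2 lower than in KCs and 4 lower than in PMs. Krt79, a keratin, reached 793, 840.3 and 845 CPM in the AM libraries and 1.65, 0.0844 and 4.57 in KCs, and had no read in MG and PMs (8.63 ± 1.06 against KCs, adjusted p = 0.000493). Krt19 reached 1151, 1012 and 1094 CPM in the AM libraries, 1.8, 2.62 and 1.28 in KCs and 0.329, 0 and 0.0895 in PMs, and had no read in MG (9.15 ± 0.53 against KCs, adjusted p = 1.04e-06). Plet1, a surface protein of epithelial progenitors and also an AM marker, was at 2003, 1868 and 1960.5 CPM in AMs against 0.0464 to 23.8 CPM (7.18 ± 0.75 against KCs, adjusted p = 1.83e-05). Cdh1 (E-cadherin) was at 103, 139 and 159 CPM against 0 to 4.89 CPM (5.49 ± 0.51 against KCs, adjusted p = 6.98e-06), Perp, a desmosome protein, at 289, 265 and 306 CPM against 0 to 3.93 CPM (6.66 ± 0.47 against MG, adjusted p = 4.42e-07), and Ctnnb1 (beta-catenin) at 671, 873 and 679 CPM against 83.1 to 234 CPM (1.76 ± 0.28 against MG, adjusted p = 0.000276). Trim29 and Cldn1 completed the group, and the log2 fold change of Trim29 was 7.94, or 14.95 without KC 2.

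Reads of genes known from lung epithelium were present in the same libraries, and whether they came from epithelial cells was not tested. Of 16 lung epithelium genes, only 6 passed the filter on low counts, and 3 of them, Sftpa1, Sftpc and Epcam, were higher in all 3 comparisons. Without KC 1 this held for 4 genes, with Napsa added (smallest log2 fold change 2.92, against 0.57 with all libraries). Epcam had a smallest log2 fold change of 7.22, or 11.27 without KC 1. The 7 surfactant and secretoglobin genes together reached 25.2, 13.8 and 9.36 CPM in AM 1, AM 2 and AM 3 and at most 1.31 CPM elsewhere, and Nkx2-1, the defining transcription factor of this epithelium, had no read. The summed level of all 16 genes was 325, 256 and 276 CPM in AM 1, AM 2 and AM 3, most of it from Epcam and Napsa, against 145 CPM in KC 1 and 1.32 to 12.2 CPM in the other libraries. The part of epithelial RNA in the keratin and junction genes was not tested.

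The summed level of markers of other cells in AMs was 4.42 to 13.5 CPM for 12 T and NK cell genes, 10.1 to 11.03 CPM for 9 dendritic cell genes and 0.0796 to 0.748 CPM for 8 fibroblast genes. It was 179 to 254 CPM for 8 B cell genes, of which Cd22 took 174 to 186 CPM, 167 to 199 CPM for 12 neutrophil genes, most of it from Mmp8 and Csf3r, and 56 to 69.6 CPM for 10 endothelium genes, of which Vwf took 54.8 to 69.3 CPM. PMs were below AMs in the B cell (12.6 to 47.7 CPM) and endothelium genes (6.26 to 8.37 CPM), while all other libraries were above AMs in the neutrophil genes (201 to 729 CPM). The 13 genes of lung interstitial macrophages summed to 99.8 to 149 CPM in AMs against 26479 to 80652 CPM in the other tissues, which share these genes, and 6 of them were lower in all 3 comparisons. Of 10 eosinophil genes, 7 had no read in AMs, and the summed level of 694 to 729 CPM was mostly Siglecf of the gate. Of the lists for B cells, T and NK cells, monocytes, dendritic cells, neutrophils, eosinophils, endothelium, fibroblasts, mesothelium, erythroid cells and platelets, hepatocytes, and neurons and glia, at most 1 gene each was called in either direction in all 3 comparisons with all libraries, and at most 2 without 1 library. Those called higher were Chil3 (monocyte list), Mmp8 (neutrophil list), Siglecf (eosinophil list), Vwf (endothelium list) and Krt19 (mesothelium list).

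Ribonucleases, chitinase-like genes and carbonic anhydrases were higher in part. Ear2, an eosinophil-associated ribonuclease, reached 1590.3, 1473 and 1409.95 CPM in the AM libraries, 0, 0.0573 and 0 in MG, 107, 90.1 and 118 in KCs and 0, 0.0596 and 0.537 in PMs (3.83 ± 0.47 against KCs, adjusted p = 6.54e-05). Ear1 was at 443, 404 and 429 CPM in AMs against 0 to 0.63 CPM. Ear genes are near-identical to each other, so the split of reads among them is uncertain. Of 9 tested ribonucleases, 3 were higher and 1 was lower (Rnaset2b, which has a near-identical copy and lost its call without AM 2, AM 3 or KC 2), of 5 chitinase-like genes 2 were higher (Chil3 and Chil4), and of 10 carbonic anhydrases 2 were higher, with Car5b, a mitochondrial form, at 30.7, 30.5 and 34 CPM against 0.15 to 7.67 CPM (2.24 ± 0.48 against PMs, adjusted p = 0.00348). Of 22 matrix proteases and inhibitors, 4 were higher (18.2%, against 3.31% of all genes), among them Mmp8, Mmp19 and Plaur. The 2 lower genes (9.09%, against 5.61%) were Mmp2 and Cst3. Cst3 was at 594 to 688 CPM in AMs against 1191 to 19142 CPM (-2.18 ± 0.53 against KCs, adjusted p = 0.0064). It was not called without KC 1 (smallest log2 fold change -0.93). Plaur, the urokinase receptor, was at 876, 744 and 929.5 CPM against 13.9 to 301 CPM (1.67 ± 0.27 against PMs, adjusted p = 0.000557), and Mmp19 at 112, 102 and 99.3 CPM against 0.301 to 21 CPM (3.24 ± 0.62 against PMs, adjusted p = 0.00155).

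Of 26 cytokines and antagonists, 5 were higher (19.2%, against 3.31% of all genes) and 4 were lower (15.4%, against 5.61%). Il1rn, the interleukin-1 receptor antagonist, reached 412, 422 and 391 CPM in the AM libraries, 1.09, 0.602 and 0.88 in MG, 53.2, 76.7 and 77.7 in KCs and 3.07, 5.25 and 4.15 in PMs (2.56 ± 0.23 against KCs, adjusted p = 5.22e-06). Il18, a cytokine released by inflammasomes, reached 392, 312 and 308 CPM in the AM libraries, 21.7, 24.9 and 23.8 in MG, 58.9, 58.4 and 52.3 in KCs and 22.5, 22.5 and 27 in PMs (2.58 ± 0.14 against KCs, adjusted p = 1.37e-07). Osm (230.5, 214 and 415 CPM against 1.38 to 29.8 CPM, 3.48 ± 0.52 against MG, adjusted p = 0.000169) and Lif (9.18, 8.65 and 13.7 against 0 to 0.477 CPM, 4.71 ± 0.64 against PMs, adjusted p = 0.00033), related cytokines that signal through gp130, were also higher. The fifth, Tnf, lost its call without KC 3. Csf1, the ligand of the CSF1 receptor, was lower at 0.423, 1.01 and 0.398 CPM in AMs against 6.89 to 35.3 CPM (-4.26 ± 0.49 against KCs, adjusted p = 3.65e-05), as was Pdgfa (0 to 0.282 against 8.19 to 18.3 CPM, -6.07 ± 0.63 against PMs, adjusted p = 1.59e-05). Ligand and receptor of this pathway, Csf1 and Csf1r, were thus both below every other library.

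Of 24 chemokines, 3 were higher and 3 were lower (12.5% each), and of 16 chemokine receptors 2 were higher (12.5%) and 3 were lower (18.75%). Among all genes, 3.31% were higher and 5.61% lower. Cx3cl1 (fractalkine), the ligand of the microglial receptor Cx3cr1, was at 85.6, 76.4 and 106 CPM in AMs against 0.256 to 7.65 CPM (4.50 ± 0.49 against KCs, adjusted p = 2.38e-05), while Cx3cr1 was at 0.0531 to 0.293 CPM in AMs and 5869.97 to 8945 CPM in MG. Cxcl3, which attracts neutrophils, was at 38, 26.1 and 39.3 CPM against 0 to 1.16 CPM (5.72 ± 1.34 against PMs, adjusted p = 0.00823), and Cxcr1, a receptor for such chemokines, at 14.2, 15.5 and 14.3 CPM against 0 to 0.844 CPM (5.13 ± 1.14 against KCs, adjusted p = 0.00882). Cxcr4, the receptor for Cxcl12, was at 27.4, 28.2 and 24.4 CPM against 0 to 2.58 CPM (4.10 ± 0.57 against KCs, adjusted p = 0.000167). Among the lower genes, Ccr3 had no read in AMs and 0.507 to 17.6 CPM elsewhere. The calls of Ccl6, Cxcl12 and Ackr3 were each lost in 5 or more of the 12 fits that left out 1 library. Of 21 prostaglandin and leukotriene enzymes, only Ptgs1 (cyclooxygenase 1) was called in all 3 with all libraries (2 were lower without AM 1 or KC 3), at 5.6, 9.83 and 8.28 CPM in AMs against 640.04 to 1641 CPM (-6.73 ± 0.39 against PMs, adjusted p = 1.46e-07).

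Few genes of energy metabolism and of the lysosome were called in all 3 comparisons. Of 76 genes of oxidative phosphorylation and 25 of the tricarboxylic acid cycle, none was called in all 3 comparisons, while 39 and 4 were higher than in MG. The share of all genes that were higher than in MG was 15.1%. Of the 25 tricarboxylic acid cycle genes, 13 had AMs above all 9 libraries, as did 15 of the 76 oxidative phosphorylation genes. This was so for 12.9% of all genes tested. The summed level of the tricarboxylic acid cycle genes was 4776 to 5071 CPM in AMs and at most 4044 CPM elsewhere, a difference below the threshold on size. Of 24 glycolysis genes, 3 were higher and 1 was lower, with 1 higher without KC 2. Of 47 lysosomal hydrolases, 2 were higher (Ctsk and Gla) and 2 were lower (Ctse and Sgsh). These are 4.26% each, against 3.31% higher and 5.61% lower among all genes. Of 18 V-ATPase subunits 1 was higher, Atp6v0d2. AMs lay above all 9 libraries for 13 of the 18 subunits, against 12.9% of all genes tested. Gla lost its call in 2 and Ctse in 7 of the 12 fits that left out 1 library. Ctsk, a collagen-degrading cathepsin, was at 698, 488 and 458 CPM in AMs against 0 to 163 CPM (2.96 ± 0.80 against KCs, adjusted p = 0.0111, or 4.51 without KC 2), and Sgsh, which degrades heparan sulfate, at 0.683, 1.01 and 1.56 CPM against 22.5 to 54 CPM (-4.56 ± 0.31 against MG, adjusted p = 2.7e-07).

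Of 28 NRF2 and antioxidant genes, 2 were higher in all 3 comparisons (7.14%, against 3.31% of all genes) and none was lower. By tissue, 19 were higher than in MG, 5 higher and 4 lower than in KCs, and 4 higher and 3 lower than in PMs. Gstm1, a glutathione transferase, was at 521, 408 and 419.97 CPM in AMs against 2.76 to 87.7 CPM (2.47 ± 0.20 against PMs, adjusted p = 2.43e-06), and Mt2, a metallothionein, at 76.6, 35 and 35.4 CPM against 1.21 to 6.55 CPM (3.22 ± 0.41 against KCs, adjusted p = 7.71e-05). Of 19 iron and heme genes, 1 was higher (2 without KC 2) and 2 were lower. These are 5.26% and 10.5% with all libraries, against 3.31% and 5.61% of all genes. Fth1, the ferritin heavy chain, was at 16553, 12779.9 and 13092 CPM against 992 to 4195 CPM (1.88 ± 0.16 against KCs, adjusted p = 4.3e-06), and Slc11a1 (Nramp1), which pumps metal ions out of phagosomes, reached 32.2, 5.04 and 2.71 CPM in the AM libraries, 359, 329 and 361 in MG, 733, 1024 and 1254 in KCs and 636, 773 and 589 in PMs (-4.72 ± 0.76 against MG, adjusted p = 0.000309), with AM 1 above the other AM libraries. Fth1 and Slc11a1 thus differed from the other tissues in opposite directions.

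Of 30 cell cycle genes, none was called in all 3 comparisons, but 28 were higher than in MG and 21 higher than in PMs. Among all genes, 15.1% were higher than in MG and 9.12% higher than in PMs. The median log2 fold change of the list was 4.54 against MG, 2.11 against PMs and 0.07 against KCs. The value against KCs depends on KC 1, where the summed level was 1943 CPM, against 1002 CPM in KC 2 and 1113 CPM in KC 3. AMs were at 1391 to 1560 CPM, between KC 1 and the other KC libraries. Without KC 1, still none of the genes was called in all 3 comparisons. Of 23 immediate early and heat shock genes, which can respond to tissue dissociation, 1 was higher (Egr2) and 2 were lower in all 3 comparisons. The lower genes were the near-identical Hspa1a (1.92 to 2.99 CPM in AMs against 6.5 to 259.8 CPM) and Hspa1b (3.63 to 4.65 against 9.96 to 332 CPM). The summed level of the list was 5218 to 6065 CPM in AMs, between that of MG (7626 to 9780 CPM) and those of KCs (2221 to 3882 CPM) and PMs (1829 to 2172 CPM). The part of dissociation in the level of Egr2 was not tested.

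**Figure D5:**
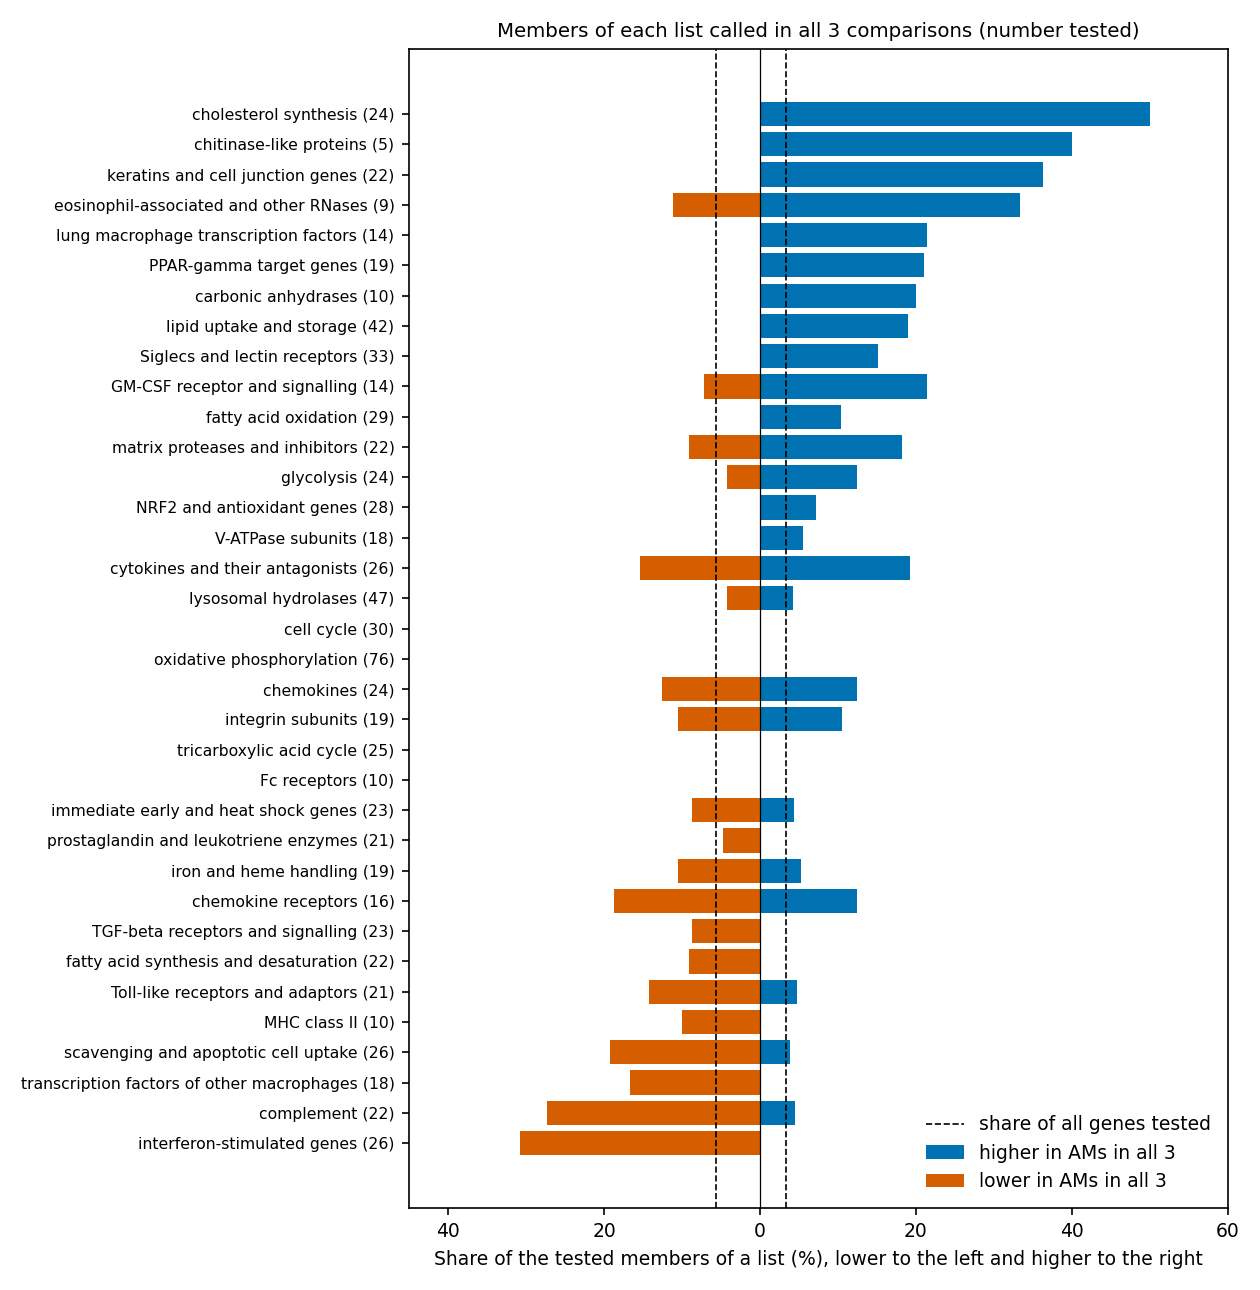
Percent of the tested genes of each list that were higher or lower in AMs in all 3 comparisons. Bars start at 0 and the dashed lines mark the percent of all genes tested, 3.31 for higher and 5.61 for lower genes; the cholesterol synthesis list stands at 50% higher and the interferon-stimulated list at 30.8% lower.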

How the data were processed

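RNA of sorted macrophages was measured in 12 ex vivo libraries (3 each of AMs, MG, KCs and PMs). The authors made libraries with the SMARTer Ultra Low and Nextera XT kits, which select poly(A) RNA and keep no strand. They sequenced single reads, trimmed these with Trimmomatic and mapped them to mm10 by STAR. The authors deposited raw read counts per gene, 1 column per library, for 45706 Ensembl identifiers. Per the labels, the tools were Trimmomatic 0.36 and STAR 2.5.2b, while the study's methods name other versions, and the labels also list a human build although all identifiers are of mouse. All columns belonged to a sample (0 of another series). Positions and symbols came from GENCODE M21 (GRCm38), and 563 identifiers had no symbol.

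Counts were tested in R 4.3.3 with edgeR 4.0.16 (two-sided quasi-likelihood test, TMM, filterByExpr with a minimum count of 10) in 1 fit of the 12 libraries with a mean per tissue, which left 15732 genes. P-values were adjusted by Benjamini-Hochberg over all of them, and a gene was called at an adjusted p below 0.05 and a log2 fold change beyond 1.5. Values after ± are SEs. The unit CPM was derived from the deposited counts. The list medians and lower bounds set a group without a read at 3 counts over its libraries. Genes named in the text were list members, genes of the gates and, per direction, the 15 genes with the largest smallest fold change among those called in all 3 comparisons, with a mean log2 CPM above 3 and no overlap between AMs and the others. Rhobtb1 was also chosen as the promoter example. The genes, lists and rule were chosen with earlier results of these data known. Alternatives were limma-voom (limma 3.58.1), DESeq2 1.42.0, RLE factors, other filters and thresholds, other sample sets, a replicate block and leaving out each library. The labels number the replicates 1 to 3 in every group, but no source ties equal numbers to a mouse or day. In simulated counts for AMs against each of the other tissues (15732 genes), 0 of 67 genes changed 2-fold (under the threshold on size), 30 of 67 changed 4-fold and 42 of 66 changed 8-fold were called in all 3 comparisons, and 0 unchanged genes were. Unchanged genes had the same mean in every tissue there, while the tissues differ in the data. This count therefore does not measure the false calls in the data. Some genes of the lists are counted but not reported by name here.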

Additional observations from a re-analysis of the deposited data

How the results depend on the processing

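The thresholds moved the counts most. When the log2 fold change had to exceed 1.5 beyond its error (glmTreat), 1558 genes were higher and 1758 lower in AMs than in MG, 718 and 1579 against KCs, 847 and 1190 against PMs, 1038 and 1097 against the mean, and 283 and 466 in all 3 comparisons. With a fold change above 1.5 in place of a log2 fold change, 4016 genes were higher than in MG, 2681 higher than in KCs, 2590 higher than in PMs, 3184 higher and 3161 lower than the mean, and 1073 higher in all 3. With the adjusted p alone, 4301 were higher and 4312 lower than in MG, 3032 higher than in KCs, 2835 higher and 2931 lower than in PMs, 3884 higher and 3441 lower than the mean, and 1248 higher in all 3. The other counts under these thresholds and all counts under the other settings stayed within 1.5 times. In all 3 comparisons these were 681 higher and 730 lower genes with limma-voom, 490 and 1016 with DESeq2, 512 and 899 with RLE factors, 533 and 795 without a filter, 477 and 858 at a minimum of 1 CPM in 3 libraries, 483 and 674 with all 24 libraries, and 523 and 630 with the 6 libraries of each comparison, which was not run for the mean. DESeq2 gave no adjusted p for 207 genes, 15 of them among the 520 higher and 14 among the 882 lower genes, so the calls of Car4, Cidec, Cish, Sqle, Trim29 and Rasgrp3 were not checked by it. Leaving out 1 library gave 2056 to 2464 higher and 2607 to 3401 lower genes against MG, 1128 to 1495 and 2210 to 2953 against KCs, 1239 to 1564 and 1650 to 2350 against PMs, 1453 to 1774 and 1714 to 2261 against the mean, and 445 to 609 and 753 to 992 in all 3. With the replicate number as a block, 509 genes were higher and 786 lower in all 3, and 492 and 774 of the main calls were kept. In deviations from the tissue mean, 1 of 18 same-number pairs and 0 of 9 with AMs correlated above 0.1. A pair with unequal numbers, KC 3 and PM 2, reached 0.179. This check therefore cannot tell whether libraries of equal number are paired. Under glmTreat, 6 of the cholesterol synthesis genes and 5 of the interferon-stimulated genes were called. At this depth, levels up to 0.110 CPM were not detectable in every library.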
